A study of Mus musculus with 4 samples.

Results

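Notch pathway genes were followed in sorted medullary thymic epithelial cells (mTECs), 10 of the 23337 genes in the count table. They were the receptors Notch1, Notch2 and Notch3, the ligands Dll1, Jag1 and Jag2, the DNA-binding effector Rbpj, and the Hes family factors Hes1, Hes6 and Hey1. The genes were selected by symbol with results of these libraries in view, and Hes6 was included because it was an abundant gene whose value was lower under the label Sirt6 cKO (those libraries are called cKO-labelled below, or cKO 1 and cKO 2 singly). Their differences between the groups are therefore a description, and no p is given for them.

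The study asked how the deacetylase Sirt6 acts in thymic epithelium, and RNA-seq was run on 4 libraries of mTECs from C57BL/6 mice at 4 weeks of age. The mTECs were sorted as CD45-EpCAM+UEA-1+Ly51- cells. The labels give the genotypes as wild type and Sirt6-/-, with 2 libraries each. In the study's methods the second genotype is a conditional deletion in mice carrying Foxn1-cre and loxP-flanked Sirt6 alleles (Sirt6 cKO), in which Cre is made in thymic epithelial cells, and the wild type (WT) mice were Foxn1-cre negative littermates or mice of matched age. The study's methods describe the samples of each group as independent and parallel. The sources used here do not give the number of mice behind a library. The p-values therefore measure only the spread between these samples, which may be technical.

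In the Notch pathway a Delta or Jagged ligand on one cell binds a Notch receptor on its neighbour. ADAM proteases and γ-secretase then release the receptor's intracellular domain, which enters the nucleus, binds RBPJ and recruits Mastermind proteins, and genes of the Hes and Hey repressors are among the classic targets. In the thymus, Dll4 on epithelial cells drives immigrant progenitors to the T lineage, and Notch activity is also used within thymic epithelium itself.

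The counts summed to between 61102704 and 65907745 per library, and 18547 genes were tested. Sirt6 did not go with the labels, at 622 counts in WT 1, 755 in WT 2, 882 in cKO 1 and 835 in cKO 2 (log2 difference 0.37, SE 0.32, edgeR adjusted p = 0.8). The count covers the whole gene, so a deleted exon was not measured apart, and the groups are named below by their labels. Markers of mTECs were detected in all 4 libraries (9 of 9, summed at 9617 to 9833 CPM, counts scaled to library size, in WT and 10840 to 11026 in the cKO-labelled pair). Most of that sum was the MHC class II gene H2-Aa, at 7527 CPM in WT 1, 7123 in WT 2, 8228 in cKO 1 and 7408 in cKO 2. Its groups overlapped, and the sum is no measure of the share of mTECs. Among all genes tested with edgeR, 8.58% had an unadjusted p under 0.05, with 5.27% of genes higher and 3.32% of genes lower in the cKO-labelled pair. The share of higher calls was 61.4%, against 46.2% with library size alone and 48.4% with upper quartile normalization. After Benjamini-Hochberg adjustment 1 gene remained (0.00539%), and DESeq2 called 1.83% of the genes for which it gave an adjusted p.

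All 10 members passed the filter on low counts. Their levels are compared between genes in TPM, which allows for gene length, and between groups in CPM. In WT the order by mean TPM was Hes6, Hes1, Hey1, Jag1, Notch1, Jag2, Dll1, Notch2, Notch3 and Rbpj, from 459 ± 17.1 for Hes6 to 3.82 for Rbpj (SD, n = 2). The TPM ranges of Hes6 and Hes1 overlapped, as did those of each neighbouring pair from Notch1 down. In the cKO-labelled libraries, Hes1 stood first at a mean of 283 TPM and Hes6 second at 239 TPM, with overlapping ranges, and Jag2 stood last at 4.9 TPM. Of the 10 members, 2 had an unadjusted p under 0.05 in the comparison that served to choose them, beside 8.58% of all genes. In 6 of 10 the groups did not overlap in CPM, beside 41.9% of all genes tested.

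**Figure D1:**
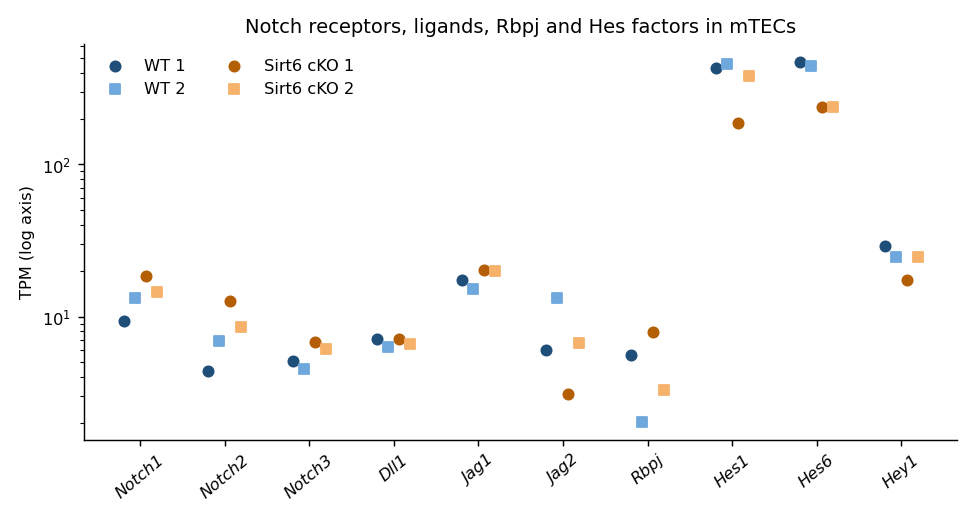
TPM of the 10 members in each of the 4 libraries, on a log axis, with circles for replicate 1 and squares for replicate 2 of each group. Hes1 and Hes6 lie between 186 and 472 TPM and the other 8 genes at 29.2 TPM or lower.

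Among the ligands, Jag1 and Jag2 encode the Jagged ligands and Dll1 a Delta ligand. Jag1 (chromosome 2, 137081456 to 137116644, GRCm38) was at 44.1 CPM in WT 1, 37.5 in WT 2, 50.6 in cKO 1 and 49.9 in cKO 2. Both cKO-labelled libraries were above both WT libraries, with a log2 difference of 0.30 (SE 0.23). Jag2 (chromosome 12, 112907819 to 112929776) was at 11.3, 24.2, 5.8 and 12.4 CPM in the same order, a log2 difference of -0.96 (SE 0.56). Its groups overlapped, since cKO 2 was above WT 1, and the difference was -0.31 without WT 2. Dll1 (chromosome 17, 15367354 to 15376872) was at 11.2, 9.71, 11.2 and 10.4 CPM, with a log2 difference of 0.05 (SE 0.32). Its groups overlapped, and the difference changed sign to -0.03 with upper quartile normalization, -0.04 with library size alone and -0.05 without WT 2. Exons of A930024N18Rik on the other strand overlap 867 bases of Dll1, and whether the counting used strand is not given in the sources used here.

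The 3 ligands together summed to 30.5 and 34.9 TPM in WT and 30.3 and 33.3 TPM in the cKO-labelled pair, so the groups overlapped. With Dll3 and Dll4 added, the sum was 57.4 and 52.7 TPM in WT and 70.6 and 80.9 TPM in the cKO-labelled pair, which did not overlap. Dll4 (chromosome 2, 119325784 to 119335962), which is no member, was counted 2307, 1354, 3457 and 4009 times in the order WT 1, WT 2, cKO 1 and cKO 2. It was higher in both cKO-labelled libraries, at 37.9 ± 2.52 TPM against 17.9 ± 5.94 (SD, n = 2; log2 fold change 1.08, SE 0.32, edgeR unadjusted p = 0.0172), and the log2 fold change was 0.77 without WT 2. The ratio of Dll4 to Dll1 in TPM was 3.13 and 2.18 in WT and 5.06 and 5.97 in the cKO-labelled pair. Dll3, a Delta family member that acts within the cell, had 312, 255, 247 and 501 counts and overlapping groups.

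The 3 Notch receptors were each higher in both cKO-labelled libraries than in both WT libraries. Notch1 (chromosome 2, 26457903 to 26516663), the receptor required for T lineage commitment, was at 40.9 CPM in WT 1, 56.7 in WT 2, 80.6 in cKO 1 and 63.3 in cKO 2. The log2 difference was 0.56 (SE 0.27), and the highest WT and lowest cKO-labelled values lay close together. Without WT 1 the difference was 0.32, and without WT 2 it was 0.81. Notch2 (chromosome 3, 98013527 to 98150361), the receptor used by marginal zone B cells among others, was at 21.2, 32.5, 61.4 and 40.9 CPM. cKO 1 was the highest library here too, and the log2 difference was 0.93 (SE 0.35), or 0.61 without cKO 1. Notch3 (chromosome 17, 32120820 to 32166852) was at 18.7, 16.1, 25 and 22.3 CPM, with a log2 difference of 0.44 (SE 0.28). The groups of Notch3 did not overlap, and the 2 libraries within each group lay close together.

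Notch4, the fourth receptor and one known from endothelium, had 189, 24, 106 and 353 counts and overlapping groups (log2 fold change 1.15, SE 1.16). The 4 receptors summed to 19.8 and 24.9 TPM in WT and 38.6 and 31.1 TPM in the cKO-labelled pair. In a bulk sample, fewer cells of a type and less RNA per cell cannot be told apart. Thymocytes also express Notch1 and Notch3, and the 12 thymocyte markers, all detected, summed to 1163 to 1638 CPM in WT and 831 to 1351 CPM in the cKO-labelled pair, which overlapped. By log2 fold change 9 of these markers were negative and 3 positive. The 10 endothelial markers, all detected, summed to 140 to 176 CPM in WT and 152 to 165 CPM in the cKO-labelled pair. Their part in the receptor values was not tested. Exons on the other strand overlap Notch1 over 1068 bases (0610009E02Rik) and Notch3 over 488 bases (Gm17276), and Gm42820 on the same strand overlaps 541 bases of Notch2.

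Rbpj (chromosome 5, 53466152 to 53657362) encodes the protein that carries the intracellular domain to DNA. It was at 14 CPM in WT 1, 5.03 in WT 2, 20 in cKO 1 and 8.11 in cKO 2. Replicate 1 was above replicate 2 in both groups, the groups overlapped, and the log2 difference was 0.56 (SE 0.66). The difference was 1.45 without WT 1, 0.01 without WT 2, -0.23 without cKO 1 and 1.06 without cKO 2. Of the 50-base words of the Rbpj transcript, 24.3% occur in another gene, 22.8% in the pseudogene Rbpj-ps3, so its count is uncertain. The RBPJ core motif TGGGAA was searched on both strands (TTCCCA on the other) in the 300 bases from 250 before to 50 after each RefSeq start. Of 32851 promoters, 25.6% held it, beside 2 of the 11 promoters of the 8 members in the promoter table, both of Rbpj. The 2 matches for Rbpj are shown because they are a binding motif of the pathway's own effector. Both lie inside the Rbpj span given above, before RefSeq starts within it and not before its first base. The downstream match was in the windows of 2 such starts, and the upstream match in the window of 1 of them. Each is given in 30 bases of the plus strand of GRCm38.p6 from RefSeq with the match in capitals, at chr5:53590185-53590214 and chr5:53590269-53590298.
Rbpj upstream match: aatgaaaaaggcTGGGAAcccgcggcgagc
Rbpj downstream match: gacgctcgcattTTCCCAggacccctcctc
A match is a description of the letters and not of binding.

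Hes1, Hes6 and Hey1 encode basic helix-loop-helix (bHLH) factors. Hes1 and Hey1 are repressors and classic targets of Notch, and Hes6 is a family member known to oppose Hes1. Hes6 (chromosome 1, 91411483 to 91414038) was counted 19006 times in WT 1, 17040 in WT 2, 8815 in cKO 1 and 9375 in cKO 2. In CPM these were 290, 268, 146 and 146. Both WT libraries were high and both cKO-labelled libraries were low, with little spread within a group, and the ratio of the means was 0.524. The log2 difference was -0.93 (SE 0.16) and lay between -0.99 and -0.90 when each library was left out in turn. By TPM, Hes6 ranked 286 and 295 among all genes in WT and 690 and 692 in the cKO-labelled pair.

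The 250 bases before the Hes6 RefSeq start that holds TATAAA are shown because Hes6 was the abundant member with the smallest SE. These bases lie inside the Hes6 span given above, before a start within it and not before its first base. They are on the minus strand of GRCm38.p6 at chr1:91413223-91413472, from RefSeq, with matches in capitals to TATAAA and, on either strand, to CCAAT.
Hes6: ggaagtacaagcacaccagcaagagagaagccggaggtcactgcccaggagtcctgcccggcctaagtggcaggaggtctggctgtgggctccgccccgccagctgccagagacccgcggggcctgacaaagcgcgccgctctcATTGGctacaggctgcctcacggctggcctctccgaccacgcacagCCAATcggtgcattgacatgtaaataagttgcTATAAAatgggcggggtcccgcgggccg
TATAAA lay 28 to 23 bases before the start, a match fixed by the choice of this start. It was in 13.6% of all promoters searched on both strands. CCAAT or its complement lay at 60 to 56 and at 106 to 102 bases before the start and was in 37.4% of all promoters. Neither TGGGAA nor the E-box CACGTG, held by 7.15% of promoters, was matched in the Hes6 window. Of the 10 members 8 were in the promoter table, and Hes1 and Hey1 were the 2 missing.

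Hes1 (chromosome 16, 30064384 to 30067796) was at 290 CPM in WT 1, 298 in WT 2, 124 in cKO 1 and 252 in cKO 2. Both cKO-labelled libraries were below both WT libraries, but cKO 2 lay much nearer to WT than cKO 1 did. The log2 difference was -0.65 (SE 0.35), with -0.22 without cKO 1 and -1.26 without cKO 2. Hey1 (chromosome 3, 8663359 to 8667256) was at 29.7, 24.5, 17.5 and 24.9 CPM. Its groups overlapped, since cKO 2 was above WT 2, and the log2 difference was -0.35 (SE 0.31), or -0.12 without cKO 1. The ratio of Hes6 to Hes1 in TPM was 1.09 and 0.977 in WT and 1.28 and 0.63 in the cKO-labelled pair, so the ratio had no common direction.

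**Figure D2:**
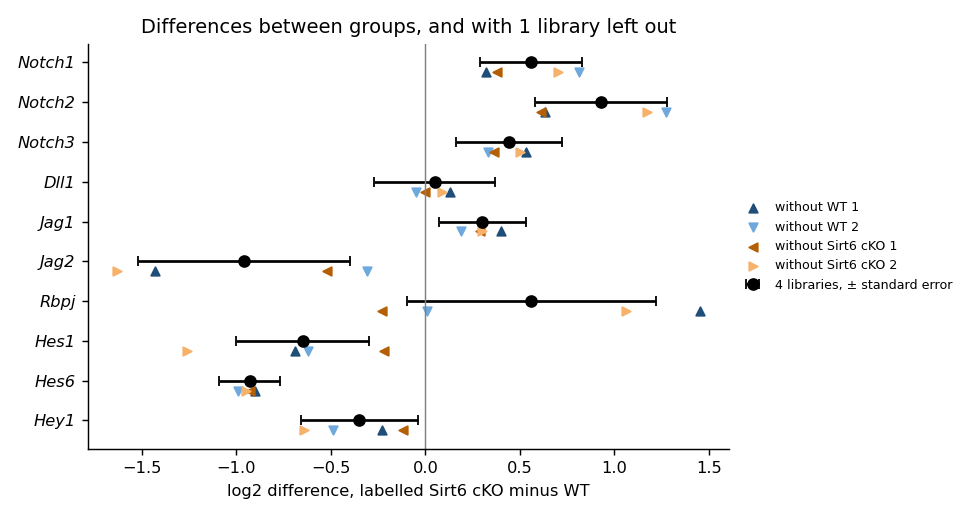
Log2 difference of each member, cKO-labelled libraries minus WT, with its standard error from the edgeR fit of 4 libraries (black), and the values with each library left out (triangles). Hes6 stays between -0.99 and -0.90, while Rbpj runs from -0.23 to 1.45.

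The Hes and Hey genes (Hes1, Hes2, Hes3, Hes5, Hes6, Hes7, Hey1, Hey2, Heyl and Helt) summed to 965 TPM in WT 1, 970 in WT 2, 495 in cKO 1 and 688 in cKO 2. Hes1 and Hes6 made up 93.8% and 93.4% of the sum in WT and 85.7% and 90.3% in the cKO-labelled pair. The sum of the other 8 genes, taken after the data were seen, went the other way without overlap. It was 60 and 64 TPM in WT and 70.8 and 67 TPM in the cKO-labelled pair. The single genes did not share this direction. Of those tested, Hes2, Hes7 and Heyl had positive log2 differences and Hey1, Hes5, Hey2 and Helt negative ones. Outside the members, Hes2 had 96, 186, 422 and 523 counts and rose (log2 fold change 1.79, SE 0.55, edgeR unadjusted p = 0.0203). Hes7, a factor of the segmentation clock, had 358, 305, 657 and 374 counts, higher in both cKO-labelled libraries, but did not pass the test (0.70, SE 0.47). Heyl had 1215, 1963, 2273 and 1911 counts, and Hes5 had 140, 296, 84 and 193, both with overlapping groups. Hey2 had 314, 0, 120 and 60 counts (-0.71, SE 2.13) and Helt 30, 102, 4 and 62 (-0.99, SE 1.60), with a wide spread within groups that overlapped. Hes3 was not tested, with no count in WT and 32 and 8 counts in the cKO-labelled pair, at least 7.04-fold higher than a floor of 3 counts per WT library, which covers counting error only. That bound rests on cKO 1, being 11.4-fold for cKO 1 and 2.68-fold for cKO 2 alone. The related Bhlhe40 (log2 fold change -0.18, SE 0.22) and Bhlhe41 (-0.13, SE 1.11) had overlapping groups.

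**Figure D3:**
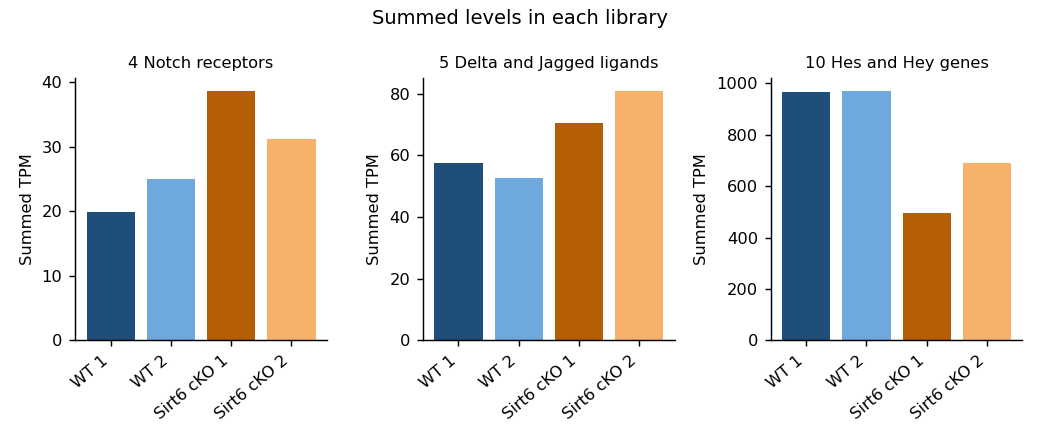
Summed TPM in each library, in separate panels for the 4 Notch receptors, 5 Delta and Jagged ligands, and 10 Hes and Hey genes, each axis from 0. The receptor and ligand sums are higher and the Hes and Hey sum, most of it Hes1 and Hes6, is lower in both cKO-labelled libraries.

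Some marker sums of other mTEC and immune cell types were lower together with Hes6 and Hes1. The 8 tuft cell markers, all detected, summed to 549 to 633 CPM in WT and 302 to 303 CPM in the cKO-labelled pair. At an unadjusted p under 0.05 in edgeR, 4 of 8 fell, beside 3.32% of all genes called lower. By log2 fold change 6 were negative and 2 positive, Pou2f3 (0.24, SE 0.24) and Dclk1 (0.36, SE 0.34). The 7 neuroendocrine markers, all detected, summed to 168 to 183 CPM in WT and 155 to 158 CPM in the cKO-labelled pair. At the same unadjusted p 1 of 7 fell, and by log2 fold change 6 were negative and 1 positive. Without Scg2, left out after the data were seen, the other 6 summed to 166 and 154 CPM in WT and 155 and 149 CPM in the cKO-labelled pair, which overlapped. Markers of B cells, macrophages and dendritic cells, 9 in all, were all detected in spite of the CD45- gate. At the same unadjusted p 2 of 9 fell, and by log2 fold change 8 were negative and 1 positive. They summed to 3256 to 5295 CPM in WT and 2377 to 2385 CPM in the cKO-labelled pair. Most of that sum was Lyz2, and without it, a choice also made after the data were seen, the other 8 summed to 649 and 441 CPM in WT and 607 and 471 CPM in the cKO-labelled pair, which overlapped. The part of these cells in the Hes6 and Hes1 values was not tested. The 6 cortical epithelial markers (628 to 928 CPM over the 4 libraries) and the 7 fibroblast markers (625 to 726 CPM), all detected, had overlapping sums. Cell cycle markers summed to 338 to 641 CPM in WT and 358 to 701 CPM in the cKO-labelled pair. Of these, 0 of 8 passed the unadjusted p in edgeR, beside 8.58% of all genes.

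The other genes of the pathway came from a list of 88 genes in 11 roles, of which 86 were tested. In all 10 rose and 3 fell at an unadjusted p under 0.05 in edgeR, 15.1% of those tested beside 8.58% of all genes, and 73 did not pass. No gene of the list passed an adjusted p of 0.05 in edgeR, and 1 did with DESeq2 (Maml1, adjusted p = 0.0105). Over the list the median log2 fold change came to 0.02, beside 0.00 for all genes. In 36 of the 86 tested genes the groups did not overlap in CPM, about the same share as the 41.9% of all genes. Of the 36, 22 were higher and 14 lower, beside 3998 higher and 3765 lower over all genes. The list had 5 higher calls without WT 1, 5 without WT 2, 3 without cKO 1 and 6 with library size alone, and it had 0 lower calls without WT 2 and 6 without cKO 2.

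**Figure D4:**
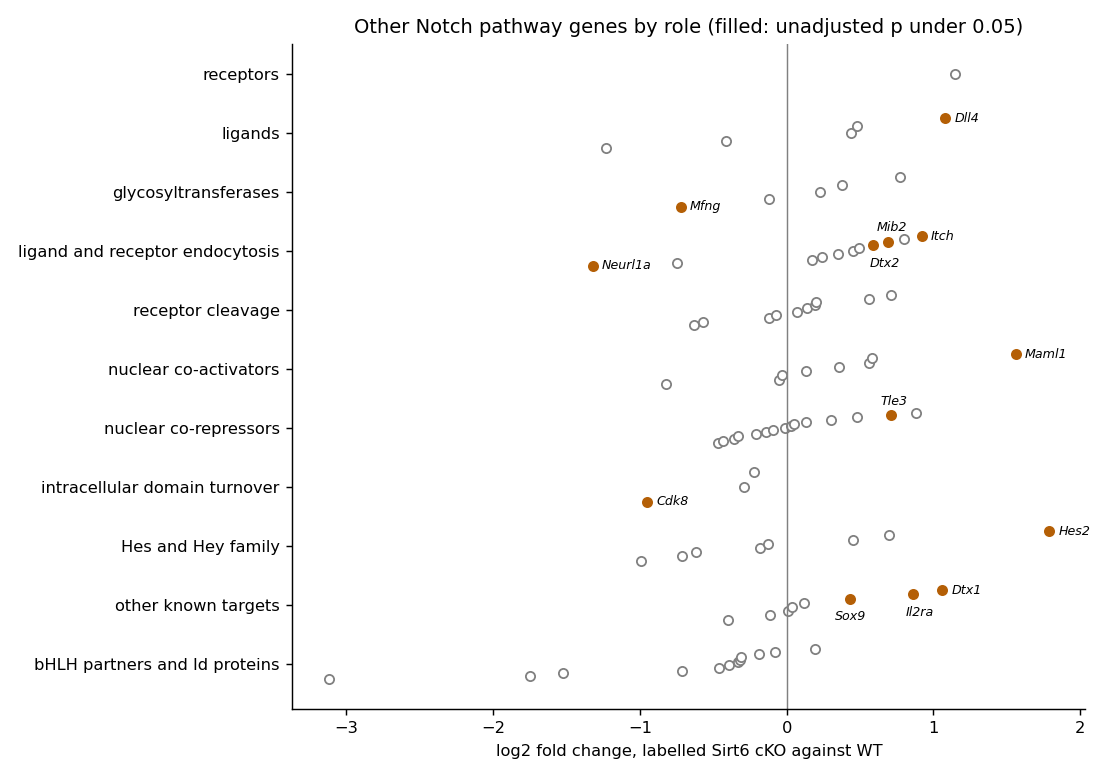
Log2 fold change of the 86 tested pathway genes outside the members, by role, with filled and named points for the 13 genes at an unadjusted p under 0.05 in edgeR and open points for the other 73. Points within a role are spread vertically only to part them, and 10 of the filled points lie to the right of 0.

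The counts by role stand beside 5.27% of all genes called higher and 3.32% called lower. On the side of the ligands and receptors, 1 of 5 ligands rose (Dll4). Of 5 glycosyltransferases 1 fell, Mfng, a Fringe enzyme that adds sugars to Notch and alters its choice of ligand. Mfng had 6128, 5959, 3185 and 3904 counts, lower in both cKO-labelled libraries (log2 fold change -0.72, SE 0.21, edgeR unadjusted p = 0.0151). Poglut1, with the highest mean TPM of them over the 4 libraries, did not pass (0.38, SE 0.18). Of 11 genes of ligand and receptor endocytosis 3 rose and 1 fell. Itch, a ubiquitin ligase that targets Notch, had 5519, 5786, 13109 and 7292 counts, so the rise rested mostly on cKO 1 (0.92, SE 0.34, or 0.38 without that library). Dtx2, a Deltex protein, rose by 0.59 (SE 0.20) and Mib2, a Mind bomb ligase that acts on ligands, by 0.69 (SE 0.27) on the log2 scale. Neurl1a, a Neuralized ligase, had 1170, 2044, 529 and 726 counts and was lower in both cKO-labelled libraries (-1.32, SE 0.40, or -0.83 without WT 2). Dtx3, with the highest TPM of this role averaged over the 4 libraries though not in each of them, did not pass (0.80, SE 0.37). None of 10 genes of receptor cleavage passed the unadjusted p in edgeR, and their median log2 fold change was 0.10.

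In the nucleus, 1 of 8 co-activators rose. Maml1, a Mastermind protein that joins RBPJ and the intracellular domain, had 501 counts in WT 1, 427 in WT 2, 1129 in cKO 1 and 1513 in cKO 2. Both cKO-labelled libraries were well above both WT libraries, at 21.1 ± 3.45 CPM against 7.18 ± 0.668 (SD, n = 2; log2 fold change 1.56, SE 0.32, edgeR unadjusted p = 0.00379, adjusted p = 0.541). Snw1, the most abundant co-activator, shares 57.1% of its 50-base words with another gene, Slirp for the most part, and was at 0.13 (SE 0.16). Of 15 co-repressors 1 rose, Tle3 of the Groucho family (0.71, SE 0.24), while Tle5, listed in the files as Aes, was at 0.03 (SE 0.22). Of 3 genes for turnover of the intracellular domain 1 fell, the kinase Cdk8 (-0.95, SE 0.38), the call with the largest p, which was named after its values were seen. Its partner Ccnc was at -0.22 (SE 0.21).

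Of 8 other known targets 3 rose. Dtx1, a Deltex gene induced by Notch in lymphoid cells, had 544, 589, 1028 and 1262 counts (1.06, SE 0.31, edgeR unadjusted p = 0.016). Il2ra, the interleukin 2 receptor alpha chain, had 7055, 6326, 13976 and 9204 counts (0.86, SE 0.27, or 0.47 without cKO 1). Sox9 was higher by less (0.43, SE 0.17). Its call was lost with DESeq2 (0.41), upper quartile normalization (0.35) and library size alone (0.34), among other settings. Myc had overlapping groups (0.12, SE 0.21).

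None of the 12 tested bHLH partners and Id proteins passed the unadjusted p in edgeR. Their median log2 fold change was -0.36, beside 0.00 for all genes. Of the 12, 1 was positive and 11 negative, beside 9204 positive and 9343 negative over all genes. Low counts with a wide spread are among them, and the SE reached 2.05 in Atoh1 (58, 92, 16 and 0 counts). Id3, an Id protein that binds bHLH partners, was the most abundant at 483 ± 29.7 TPM in WT and 455 ± 11.4 TPM in the cKO-labelled pair (SD, n = 2).

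Of the 13 calls, that of Maml1 held with each library left out in turn and under every other setting tried. Without WT 1 the calls of Mib2 (0.56), Itch (0.84), Dtx2 (0.55), Tle3 (0.57), Cdk8 (-1.05), Hes2 (1.35), Dtx1 (0.96), Il2ra (0.89) and Sox9 (0.32) were lost. Without WT 2 those of Dll4 (0.77), Mfng (-0.72), Mib2 (0.80), Neurl1a (-0.83), Itch (0.97), Dtx2 (0.59), Tle3 (0.83), Cdk8 (-0.87), Il2ra (0.80) and Sox9 (0.51) were lost. Without cKO 1 those of Mfng (-0.62), Mib2 (0.66), Neurl1a (-1.14), Itch (0.38), Dtx2 (0.43), Tle3 (0.44), Cdk8 (-0.66), Hes2 (1.90), Il2ra (0.47) and Sox9 (0.38) were lost. Without cKO 2 those of Dll4 (1.01), Mib2 (0.70), Hes2 (1.65), Dtx1 (0.94) and Sox9 (0.46) were lost. No call changed sign. Exons of other genes overlap Dll4 (Gm14207, 214 bases), Maml1 (Gm26542, 135 bases), Hes5 (Gm20421, 433 bases) and Hes7 (9130213A22Rik, 234 bases) on the other strand and Neurl1a (AC132288.2, 690 bases) on the same strand, so reads there could not be assigned with certainty.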

How the data were processed

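Reads were trimmed (Trim Galore), mapped by the authors to mm10 (HISAT2 2.1.0) and assigned to genes with StringTie 1.3.3, per the labels and the study's methods. The deposited counts are whole numbers per gene without normalization. The deposited TPM tables were treated as a signal, since each ends in a total line, which was left out. The gene annotation and the use of strand are not given in the sources used here.

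From the counts, edgeR 4.0.16 in R 4.3.3 was used with TMM scaling, filterByExpr (minimum count 10, minimum total 15) and the two-sided quasi-likelihood test of 2 libraries against 2, with Benjamini-Hochberg adjustment over 18547 genes. CPM used the TMM factors. SE is the log2 difference divided by the root of F. A call is an unadjusted p under 0.05. Positions and overlaps came from GENCODE M21 on GRCm38. Alternatives used DESeq2 1.42.0 and limma 3.58.1. The edgeR step was also run on simulated counts in which all genes shared the same spread, so that run is no check of the calls given here. Summaries and plots were made in Python 3.11.15 (matplotlib 3.10.9, numpy 2.4.6, pandas 2.3.3).

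The members and lists were chosen with earlier results of these data known. The text names the members, Notch4, Dll3, Dll4, each Hes or Hey family gene tested, the pathway genes outside the members with an unadjusted p under 0.05 (at most 12 by smallest p, Dll4 and Hes2 included), the gene of highest mean TPM in each role, and the 5 genes nearest to Hes6. For 1 role that gene is not reported here. Hes3, Cdk8 and Atoh1 were named after their values were seen. The same-numbered libraries' deviations correlated at -0.054 over genes, and the labels do not say that the numbers mark anything shared.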

Additional observations from a re-analysis of the deposited data

How the results depend on the processing

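With 2 libraries a group and a biological coefficient of variation of 0.557, the SE of Hey2 was 2.13 and that of Helt 1.60. Over all genes, 977 higher and 615 lower calls became 421 to 1100 and 314 to 827 with 1 library left out, both lowest without cKO 1. The 1 gene past the adjusted p became 354 with DESeq2, 2 with the TPM filter, 2 with limma on log2(TPM + 0.1), and 0 to 0 with 1 library left out. In the pathway list, 10 higher calls became 6 with library size alone and 3 to 8 with 1 library left out, and 3 lower calls became 0 to 6. Of the list 0 genes passed the adjusted p in edgeR, with 13 past the unadjusted p, and 1 passed with DESeq2. With the replicate number as a block, 0 genes passed the adjusted p and 697 higher and 449 lower the unadjusted p, and the pathway list had 5 higher calls. Dll1 reversed to -0.04 with library size alone and -0.03 with upper quartile normalization, and ran from -0.05 to 0.13 with 1 library left out, and Rbpj from -0.23 to 1.45. Of 120 alternative values of the members' differences, 112 kept their direction and stayed within 1 SD, 4 moved and 4 reversed. The cause of these changes was not tested. With 1 library left out, the lone library is assumed to vary like the other group.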

Other observations

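The genes whose CPM over the 4 libraries was most like that of Hes6, among 10409 genes with a mean of at least 10 CPM, were Rtp4, Ccr8, As3mt, Car2 and Fcf1, by the root mean square distance of centred log2 CPM (0.025, 0.030, 0.038, 0.048 and 0.048). Rtp4, a receptor transporter, had 5321 counts in WT 1, 4660 in WT 2, 2360 in cKO 1 and 2610 in cKO 2. Ccr8, a chemokine receptor, had 2151, 1861, 977 and 1001 counts, and Car2, a carbonic anhydrase, had 3765, 3387, 1674 and 1956. All 5 were higher in both WT libraries, as the measure of likeness requires, and the likeness over 4 libraries is a description.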
